A study of Coregonus migratorius and Coregonus peled with 8 samples.

Results

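Among 2184 listed genes of larvae of the Baikal omul and the peled, 39 differed in opposite ways between nature and the unheated aquaculture control. In omul they stood lower in larvae from nature than in the control, and in peled they stood higher. They were chosen by their values in 4 libraries. A gene belonged if log2((nature + 1)/(aquaculture control + 1)) was at least 1 in peled and at most -1 in omul, and if the higher library of each pair held 10 or more. Of 1213 genes that reached this level in both pairs, the 39 are 3.22%. They are called members here. Taken alone, the peled side is met by 803 genes, 48.2% of those at that level in peled, and the omul side by 315 genes, 21.8% of those at that level in omul. The opposed direction, the level minimum and the 2-fold size are thus the choice itself and are given here as a description. The values of the 4 heated libraries had no part in the choice.

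The omul of Lake Baikal, Coregonus migratorius, and its relative the peled, Coregonus peled, are coldwater whitefishes of the salmon family, reared in hatcheries in Siberia and released into lakes and rivers. The ancestor of the salmon family duplicated its whole genome, so that many of its genes have a second copy. Closely related species also differ in sequence at the same gene. Trinity, the assembler whose identifiers the genes carry, builds transcripts from reads without a genome and places similar transcripts in 1 assembly component, from which separate genes can be reported. The identifiers are not paired with gene names in the files and no reference was used, so the genes are known by identifier alone, their functions are not described, and tissue markers could not be checked.

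Poly(A) RNA of whole larvae was sequenced on an Illumina NovaSeq instrument, with 1 library for each of 8 groups, each a pool of RNA from 12 to 16 larvae. In each species the groups were larvae from nature, taken from ponds at a fish hatchery, and 3 groups of larvae held in aquaculture for 1.5 months at 9 to 12 °C, namely chronic stress, in which the water was at 21 °C for 24 h on 3 occasions a week, acute stress, a rapid rise to 21 °C for 1 h, and an unheated control. The labels call the larvae from nature control larvae too and give no heat treatment for them. Age and temperature are not given for the larvae from nature and cannot be told apart from origin. No group had replicates. In pooled whole larvae, fewer cells of a type and less RNA per cell cannot be told apart.

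Before the members are described, 1 property of the libraries bears on them. Across all 2184 genes the libraries from nature correlated with each other at r = 0.93, and both correlated more with aquaculture-reared omul (0.64 to 0.68) than with aquaculture-reared peled (0.22 to 0.51), so that the peled library from nature lay nearer to omul from aquaculture than to its own species. Summed deposited values were 79169 to 228369 per library, median values 8.70 to 10.9, and 6 to 74 genes per library were listed at 0. The depth of sequencing is unknown. Genes are not independent replicates in such a correlation, and the list is a selection by a rule not stated. The tests below use neither the libraries from nature nor the controls.

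In peled, the median value over the 39 genes was 14.8 in nature, 3.01 after chronic warming, 2.72 after acute warming and 2.40 in the control. In omul, their median was 13.8 in nature, 36.4 after chronic warming, 30.3 after acute warming and 50.8 in the control. The members were thus low in the 3 peled libraries from aquaculture, high in the 3 omul libraries from aquaculture, and between these levels in both libraries from nature. Summed over the 39 genes, the value was 948 in nature and 130 in the control of peled, and 768 in nature and 2616 in the control of omul. The sum made up 0.415% of all listed values in nature peled, 0.160% in control peled, 0.496% in nature omul and 2.33% in control omul.

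**Figure D1:**
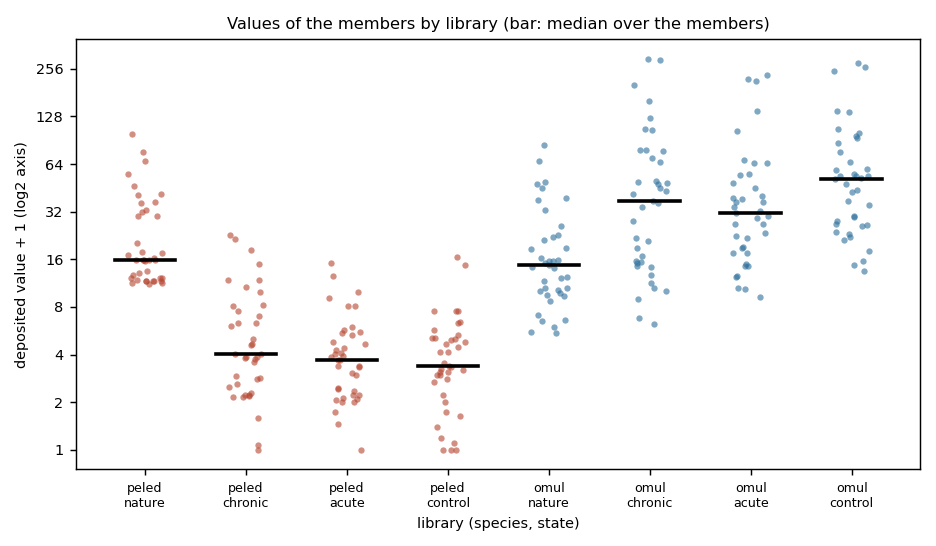
Deposited values (plus 1, log2 axis) of the 39 genes in each of the 8 pooled libraries, 1 point per gene, with black bars at the median over the genes. The medians of the value itself are 14.8 in nature peled and 2.40 to 3.01 in the other peled libraries, against 13.8 in nature omul and 30.3 to 50.8 in the other omul libraries.

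The order of the libraries was alike in most members. All 3 aquaculture libraries of peled lay below both libraries from nature in 37 of the 39 genes, against 47.2% of all listed genes. Both libraries from nature lay below all 3 aquaculture libraries of omul in 26 of 39, against 26.8% of all genes, and 25 of 39 met both orders, against 9.94% of all genes. The control libraries that enter these orders were used in the choice, so the counts are a description. All 3 peled aquaculture libraries lay below all 3 of omul in 38 of 39, against 43.3% of all genes. Of the 39 genes, 32 were below 10 in each aquaculture library of peled and 21 were below 5, while 34 were at 10 or more in each aquaculture library of omul. Of all listed genes, 39.6% were below 10 and 30.7% below 5 in each aquaculture library of peled, and 36.4% were at 10 or more in each of omul. On the linear scale, the value in nature peled stood at a median of 37.6% of the way up from the peled control to the omul control (range 6.25% to 147%), and the value in nature omul at a median of 29.5% (range 1.33% to 47.4%).

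TRINITY_DN14335_c0_g2 had the largest opposed difference, with a log2 ratio of nature to control of 5.05 in peled and -2.46 in omul. In peled it stood at 65.9 in nature, 21.8 after chronic warming, 1.22 after acute warming and 1.01 in the control. In omul it stood at 46.8 in nature, 294 after chronic warming, 232 after acute warming and 263 in the control. Its 2 values from nature lay within 2-fold of each other, above every aquaculture library of peled and below every one of omul. The 294 is also the highest value that any member reached.

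TRINITY_DN4501_c0_g3 came next, with log2 ratios of nature to control of 3.39 in peled and -3.69 in omul. Its values in peled were 10.6 in nature, 1.30 after chronic warming, 0 after acute warming and 0.108 in the control. In omul they were 9.53 in nature, 106 after chronic warming, 39.1 after acute warming and 135 in the control. This gene was listed at or near 0 in peled from aquaculture. TRINITY_DN33037_c0_g1 behaved differently at its lower end, with 45.8 in nature and 11.6 to 15.5 in the other peled libraries, against 48.6 in nature omul and 219.7 to 288 in the other omul libraries.

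At the edge of the choice, the values did not separate members from their neighbours in the list. TRINITY_DN5086_c13_g1, just inside, stood at 31.9 in nature and 6.58 in the control of peled, and at 36.6 in nature and 75.0 in the control of omul, which is a log2 ratio of -1.01 in omul. TRINITY_DN50618_c1_g1, just inside on the peled side, stood at 10.7 in nature and 4.73 in the control of peled (log2 ratio 1.02), and at 14.8 in nature and 36.3 in the control of omul. Just outside were TRINITY_DN40941_c1_g1, with log2 ratios of 2.23 in peled and -0.99 in omul, and TRINITY_DN55306_c0_g1, with 4.16 and -0.98. Within 0.1 of the threshold on the log2 scale lay 8 genes inside and 13 outside.

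**Figure D2:**
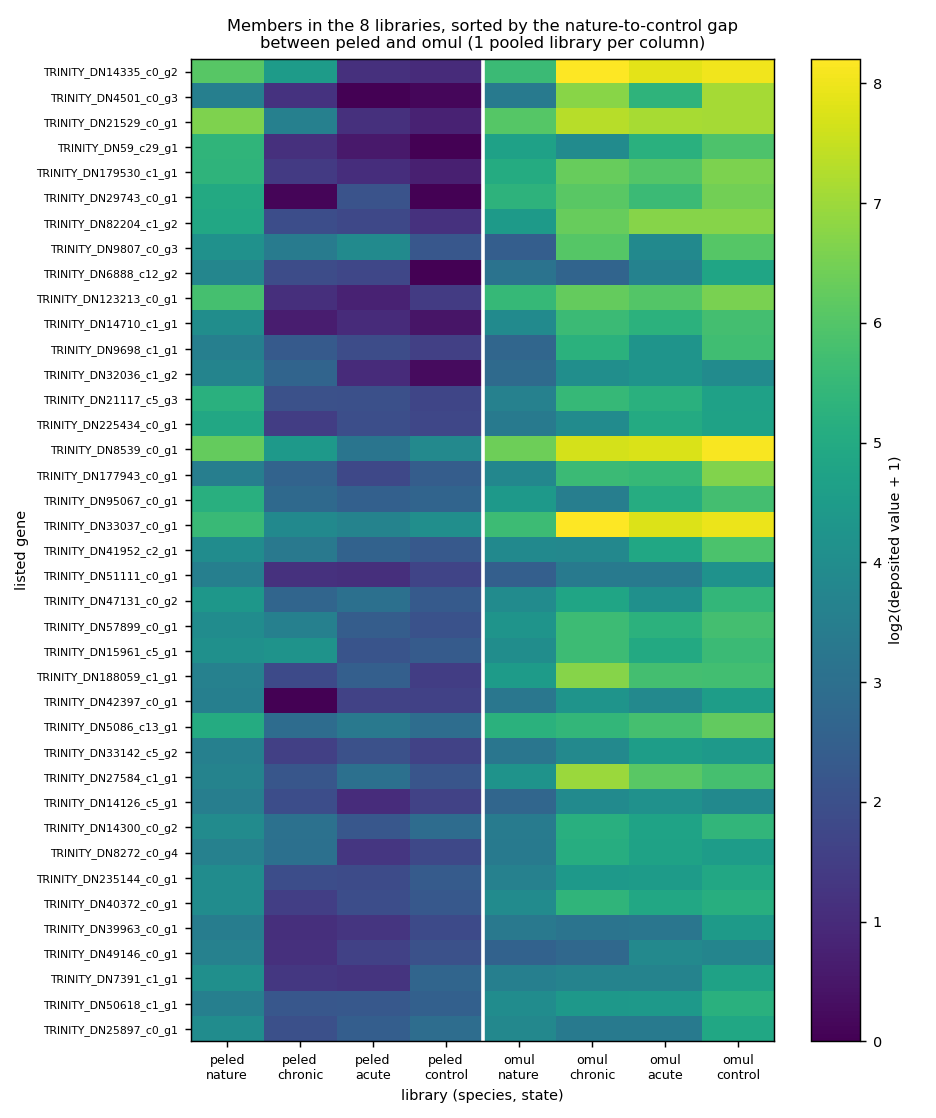
Heat map of log2(deposited value + 1) for the 39 genes (down the page, from the largest to the smallest opposed difference between nature and control) in the 8 pooled libraries (across, peled left and omul right of the white line). TRINITY_DN14335_c0_g2 at the top runs between 65.9 in nature and 1.01 in the control of peled, and between 46.8 in nature and 263 in the control of omul.

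In nature the species were close at these genes, as they were at most listed genes at a value of at least 10. The value in peled from nature lay within 2-fold of that in omul from nature for 34 of the 39 genes, and at least 2-fold above it for the other 5, while 0 lay at least 2-fold below. Over all 1294 genes at a value of at least 10, 75.1% were within 2-fold, 12.6% higher and 12.3% lower in peled. The median log2 ratio of peled to omul was 0.30 over the members in nature, against -0.14 over all listed genes. In the aquaculture controls the same median was -3.57 over the members, against -0.45 over all listed genes, and all 39 were at least 2-fold lower in peled. In the controls, 45.5% of 1667 genes were lower in that way. These 4 libraries chose the members, so nothing is read from the species difference in them.

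The species difference was then tested in the 4 heated libraries, that is, in larvae whose values had no part in the choice. With peled set against omul over both heat regimes, 38 of the 39 genes were lower in peled and 0 higher (limma on log2(value + 1) with the regime as a covariate, Benjamini-Hochberg adjusted p below 0.05 over 2177 genes tested). Over all tested genes, 41.8% were lower and 37.4% higher. A closer background is given by the 756 tested genes that were at least 2-fold lower in the peled than in the omul control, as all 39 members were, and 85.8% of these were lower in heated peled. It is not matched in size, since it begins at 2-fold. The members' log2 ratios in the controls ran from -7.03 to -1.70, with a median of -3.57. The control values were part of the choice, so nothing is read from the members' larger share. The median difference was -2.62 (log2) over the members, ranging from -5.43 to -1.13, and -0.47 over all tested genes.

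All 39 members passed the filter on low values, a mean of at least 1 over the 4 libraries. This mean is taken over both species, so a gene near 0 in peled could pass through omul. TRINITY_DN4501_c0_g3 did so, at 1.30 after chronic and 0 after acute warming in peled, against 105.5 and 39.1 in omul. The model has 1 residual degree of freedom before limma shares information between genes, and its error comes from how far the chronic-to-acute difference of peled departs from that of omul. The p-values therefore rest on that departure, moderated over genes, and not on a spread over replicate pools. A heat response that differs between the species counts as error in them.

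**Figure D3:**
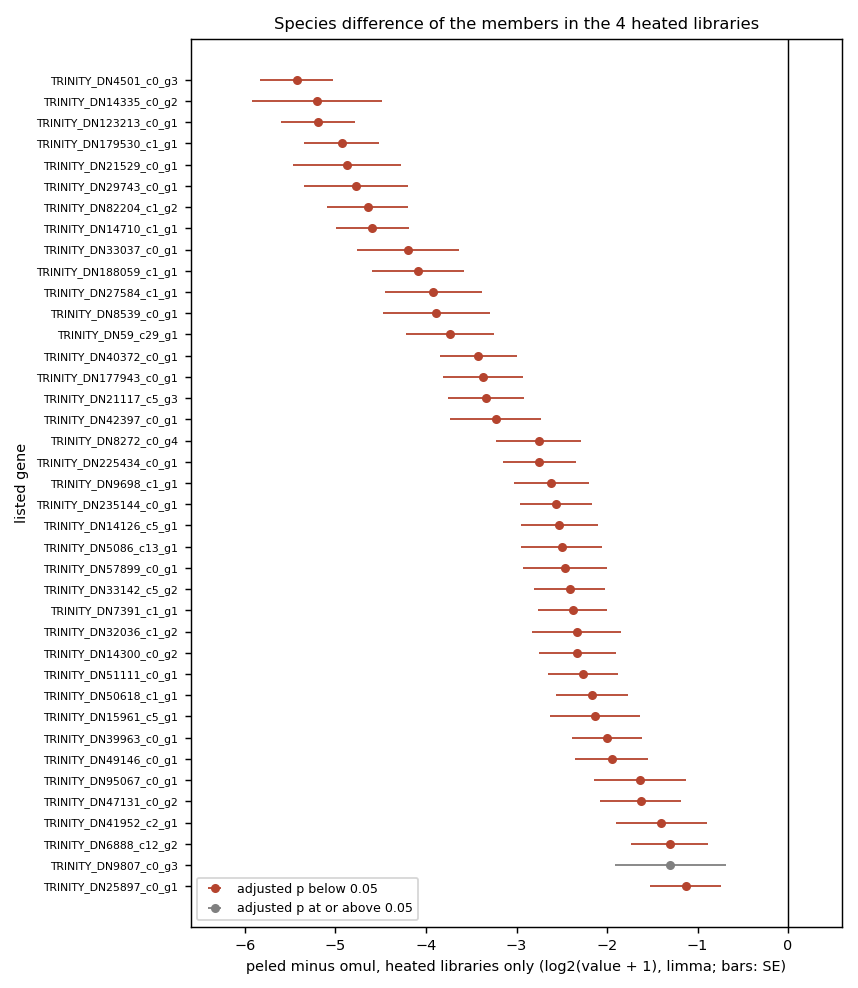
Difference between peled and omul (peled minus omul, log2(value + 1), limma) for each of the 39 genes in the 4 heated libraries, with bars of 1 SE. All points lie below 0, between -5.43 and -1.13, and the grey point is TRINITY_DN9807_c0_g3, which did not pass the test.

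TRINITY_DN4501_c0_g3 had the most negative heated difference, at -5.43 (SE 0.40, limma adjusted p = 1.17e-05). TRINITY_DN14335_c0_g2 followed at -5.20 (SE 0.72, limma adjusted p = 0.000174). The values of both were given above, and in each of them every heated peled library lay far below every heated omul library. At the other end, TRINITY_DN25897_c0_g1 differed by -1.13 (SE 0.39, limma adjusted p = 0.0233). It stood at 3.01 after chronic and 4.48 after acute warming in peled, against 9.14 and 9.37 in omul, and its call was lost with a pseudocount of 0.1 (limma adjusted p = 0.0519) and, with no regime term, in each fit that left out 1 heated library (limma adjusted p = 0.0520 to 0.182).

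TRINITY_DN9807_c0_g3 was the member that did not pass, with a difference of -1.30 (SE 0.62, limma adjusted p = 0.0760). After acute warming it stood at 14.1 in peled and 14.0 in omul, and after chronic warming at 9.74 in peled and 64.6 in omul. The acute libraries of the species were nearly equal and the chronic ones were far apart. It passed with a pseudocount of 5 (limma adjusted p = 0.0354) and with libraries scaled to a common median (limma adjusted p = 0.00847). The sum of its component passed too (-1.67, SE 0.59, limma adjusted p = 0.0245). With no regime term and 1 heated library left out, the difference of the member ran from -2.36 (omul acute left out) to -0.24 (omul chronic left out). In the scaled fit limma's prior degrees of freedom were infinite, against 8.52 in the main fit. That fit took the error of every gene from the intensity trend, not from the gene's own spread.

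Taken library by library, with no test, 32 of 34 members at a value of at least 10 were at least 2-fold lower in chronic peled than in chronic omul, against 42% of all genes at that level. After acute warming 35 of 36 were lower in peled, against 44.2% of all genes. In either regime 0 were at least 2-fold higher in peled, against 39.9% of all genes after chronic and 45.2% after acute warming. Every member read here reached 10 in omul, 34 after chronic and 36 after acute warming, against 6 and 2 in peled. The level was thus met through the species in which the members are high, while all genes could meet it through either. Nothing is read from these counts. The median log2 ratio of peled to omul over the 39 genes was -2.52 after chronic and -2.97 after acute warming.

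The heated libraries were also put in place of the controls on the aquaculture side of the choice, with the same libraries from nature. On the peled side, 32 members were at least 2-fold higher in nature than after chronic warming (47.9% of all genes at that level) and 37 were higher than after acute warming (47.4%). On the omul side, 21 members were at least 2-fold lower in nature than after chronic warming (23.2% of all genes) and 21 were lower than after acute warming (19.6%). The peled side of the pattern was met by more members than the omul side, as it was by a larger share of all genes. On the omul side 35 members reached the level with the chronic library and 37 with the acute library, against 39 in both peled comparisons. The whole rule was met by 45 genes with the chronic libraries (3.75% of those read), 15 of them members, which is 38.5% of the members and 33.3% of the 45. With the acute libraries it was met by 38 genes (3.14%), 19 of them members, which is 48.7% of the members and 50% of the 38. With both heated pairs it was met by 21 genes (1.82% of those read), 12 of them members, which is 30.8% of the members and 57.1% of the 21, and 17 members met it with neither. The libraries from nature were used in the choice, so these counts are a description.

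TRINITY_DN6888_c12_g2 had the lowest heated levels relative to the omul control. It stood at 5.22 after chronic warming, 11.4 after acute warming and 27.1 in the control of omul, against 7.75 in omul from nature. In peled it stood at 2.74 after chronic and 2.36 after acute warming and was listed at 0 in the control, against 12.5 in nature, and it had the highest heated levels relative to the peled control as well. Heated values thus lay between the controls of the species in this gene.

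In omul, 8 of 39 members were at least 2-fold lower after chronic warming than in the control (10.7% of all genes at a value of at least 10) and 2 were higher (10.9%). After acute warming 9 of 39 were lower (10.5%) and 0 higher (8.15%). The members had been chosen for a high omul control, which by itself places other omul libraries below it, and nothing is read from the share. At least 2-fold lower after both regimes were 5 of the 39, against 5.88% of the 1122 genes that could be read in both. Named after their values were seen, they were TRINITY_DN39963_c0_g1, TRINITY_DN177943_c0_g1, TRINITY_DN7391_c1_g1, TRINITY_DN25897_c0_g1 and TRINITY_DN6888_c12_g2. TRINITY_DN177943_c0_g1 stood at 47.4 after chronic warming, 44.5 after acute warming and 100.1 in the control of omul.

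TRINITY_DN27584_c1_g1 had the highest heated levels relative to the omul control. It stood at 124 after chronic warming, 67.1 after acute warming and 54.3 in the control of omul, and at 17.5 in omul from nature. In peled its values were 11.8 in nature, 3.60 after chronic warming, 7.09 after acute warming and 3.47 in the control. In this gene the omul library from nature was the lowest of omul by a wide gap.

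In peled, few members reached a value of 10 in a heated library or the control, so that few could be read. After chronic warming 4 of the 6 that could be read were at least 2-fold higher than in the control (20.1% of all genes at that level) and 0 lower (16.3%). After acute warming 1 of 3 was higher (12.3%) and 0 lower (7.07%). TRINITY_DN7391_c1_g1 had the lowest heated levels relative to the peled control, at 1.50 after chronic warming, 1.37 after acute warming and 5.43 in the control. Its value in peled from nature was 15.9. The choice of a low peled control by itself places other peled libraries above it, so nothing is read from these shares.

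The regimes were compared in the same 4 heated libraries, chronic against acute, a contrast that uses no library of the choice. No member passed limma's test at an adjusted p below 0.05, with 4 of 39 higher and 0 lower at an unadjusted p below 0.05. Over all 2177 tested genes 5.33% were higher and 7.44% lower after chronic warming at an unadjusted p below 0.05, and 0.23% were higher and 1.38% lower in the adjusted test. The members' median difference was 0.05 (log2), against 0.02 over all tested genes, with a range of -0.77 to 1.85. Of the 39 genes, 15 were higher after chronic warming in both species, 7 were lower in both, 9 were higher in peled and lower in omul, and 8 were lower in peled and higher in omul. Over all 2184 listed genes these shares were 28.8%, 28.5%, 21.1% and 19.1%, in the same order.

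The members with the highest chronic values relative to acute were TRINITY_DN14335_c0_g2, at 1.85 on the log2 scale over both species (SE 0.72, limma adjusted p = 0.298), and TRINITY_DN15961_c5_g1, with 1.37 (SE 0.50, limma adjusted p = 0.270). With libraries scaled to a common median, TRINITY_DN14335_c0_g2 passed (1.92, SE 0.59, limma adjusted p = 0.0244), in the fit where a gene's own spread did not count. In the other settings, component sums among them, its limma adjusted p was 0.298 to 0.770. The single log2 ratios of TRINITY_DN14335_c0_g2 were 3.37 in peled and 0.34 in omul, and those of TRINITY_DN15961_c5_g1 were 2.07 in peled and 0.66 in omul. TRINITY_DN15961_c5_g1 stood at 16.5 in nature, 17.4 after chronic warming, 3.40 after acute warming and 4.08 in the control of peled. In omul it stood at 15.4 in nature, 48.6 after chronic warming, 30.3 after acute warming and 46.9 in the control. Its chronic peled library was level with both libraries from nature.

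In the chronic peled library, 4 of the 6 members at a value of at least 10 were at least 2-fold above both the acute library and the control of peled, against 17.3% of the 1028 listed genes at that value. The low peled control was part of the choice, so nothing is read from this count. The 4 include the 2 genes just named and, chosen after their values were seen, TRINITY_DN21529_c0_g1 and TRINITY_DN57899_c0_g1. TRINITY_DN21529_c0_g1 stood at 97.5 in nature, 10.8 after chronic warming, 1.22 after acute warming and 0.724 in the control of peled, and at 65.4 in nature and 137 to 160 in the other omul libraries. TRINITY_DN57899_c0_g1 stood at 14.7 in nature, 10.8 after chronic warming, 4.34 after acute warming and 3.17 in the control of peled. These values rest on 1 chronic library and have no replicate check.

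At the low end, TRINITY_DN225434_c0_g1 differed by -0.77 between chronic and acute warming (SE 0.40, limma adjusted p = 0.486) and TRINITY_DN49146_c0_g1 by -0.77 (SE 0.40, limma adjusted p = 0.480). TRINITY_DN225434_c0_g1 stood at 1.81 after chronic and 2.91 after acute warming in peled, and at 14.4 after chronic and 31.1 after acute warming in omul. TRINITY_DN49146_c0_g1 stood at 1.21 and 1.98 in peled and at 5.79 and 13.5 in omul, in the same order of regimes. The acute value was the higher of the heated values in both species for both genes, and neither difference passed.

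**Figure D4:**
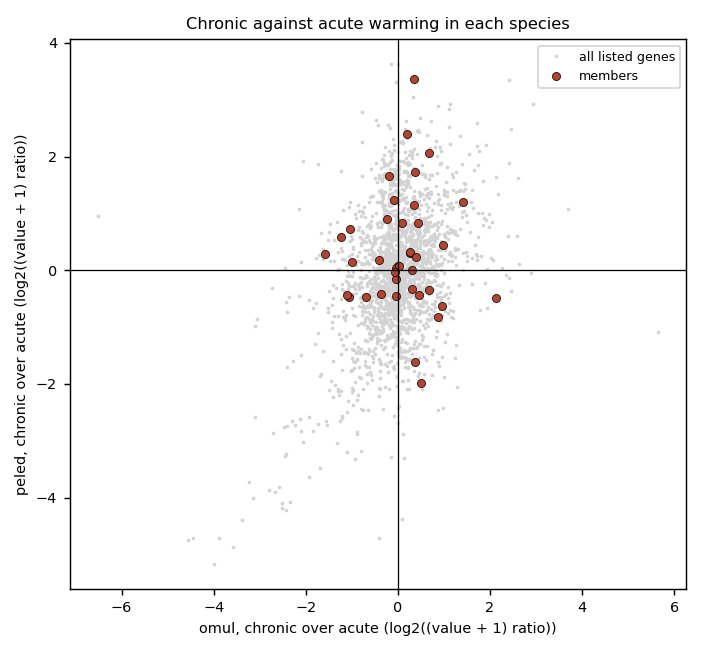
Log2 ratio of chronic to acute warming of each gene in omul (across) and in peled (up), on values plus 1, with all 2184 listed genes in grey and the 39 members in red. The members lie on all sides of 0, with 15 above 0 in both species and 7 below 0 in both, and TRINITY_DN14335_c0_g2 stands highest.

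The members come from 39 different assembly components. In 5 of these components the list holds 7 other genes, which show what the rest of the component did where a member was chosen. In the heated libraries all 7 differed between the species in limma's test, 3 higher in peled, against the direction of the member, and 4 lower in peled. Of all tested genes 37.4% were higher and 41.8% lower, so this split of 7 genes is near that of the whole list. The other 34 members are alone in their component among the listed genes.

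TRINITY_DN14335_c0_g1 shares its component with the member TRINITY_DN14335_c0_g2. In peled it stood at 46.8 in nature, 506 after chronic warming, 246 after acute warming and 237 in the control. In omul it stood at 53.5 in nature, 1.64 after chronic warming, 1.25 after acute warming and 2.66 in the control. It was high in the 3 aquaculture libraries of peled, where the member was low, low in the 3 of omul, where the member was high, and between these levels in both libraries from nature. Its heated difference, peled minus omul, was 7.18 (SE 0.50, limma adjusted p = 8.62e-06), against -5.20 for the member. Summed over the component, the value in peled was 113 in nature, 528 after chronic warming, 247 after acute warming and 238 in the control. In omul the sum was 100.3 in nature, 296 after chronic warming, 233 after acute warming and 265 in the control. On the summed values nature was lower than the control in both species (log2 ratio -1.07 in peled and -1.39 in omul), and the heated difference of 0.46 (SE 0.85, limma adjusted p = 0.628) did not pass.

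The component TRINITY_DN8272_c0 holds the member TRINITY_DN8272_c0_g4 and 2 other listed genes. The member stood at 11.2 in nature and 1.45 to 7.15 in the other peled libraries, and at 9.14 in nature and 22.1 to 33.4 in the other omul libraries. TRINITY_DN8272_c0_g1 stood at 2.92 in nature and 46.7 to 55.2 in the other peled libraries, and at 16.3 in nature and 0 to 0.036 in the other omul libraries. It was again the reverse of the member, with a heated difference of 5.68 (SE 0.39, limma adjusted p = 8.62e-06) against -2.76 (SE 0.46, limma adjusted p = 0.000499) for the member. The remaining gene, TRINITY_DN8272_c0_g3, was lower in heated peled, like the member (-1.97, SE 0.42, limma adjusted p = 0.00192). It stood at 13.3 in nature and 5.32 in the control of peled, and at 17.9 in nature and 8.675 in the control of omul. In omul it was thus higher in nature than in the control, unlike the member. The sum of the 3 genes was at 27.4 in nature and 56.0 in the control of peled, and at 43.3 in nature and 30.8 in the control of omul, the opposite of the member, and its heated difference of 0.33 (SE 0.54, limma adjusted p = 0.588) did not pass.

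TRINITY_DN14300_c0_g2 and TRINITY_DN14300_c0_g1 form another such pair. The member TRINITY_DN14300_c0_g2 stood at 14.7 in nature and 6.53 in the control of peled, and at 9.60 in nature and 41.3 in the control of omul. TRINITY_DN14300_c0_g1 stood at 5.30 in nature and 17.1 in the control of peled, and at 7.33 in nature and 0.799 in the control of omul. Heated, the member was lower in peled (-2.33, SE 0.42, limma adjusted p = 0.000755) and the other gene higher (3.19, SE 0.46, limma adjusted p = 0.000220), while their sum differed by -0.47 (SE 0.47, limma adjusted p = 0.366). The sum no longer stood higher in nature than in the control of peled, at 19.9 and 23.6.

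The remaining pair of components kept the pattern when summed. In TRINITY_DN9807_c0 the member TRINITY_DN9807_c0_g3 and both other listed genes were higher in nature than in the control of peled, and lower in nature than in the control of omul. Their sum stood at 26.4 in nature and 7.43 in the control of peled, and at 16.1 in nature and 130 in the control of omul. In TRINITY_DN188059_c1 the sum stood at 14.6 in nature and 2.28 in the control of peled, and at 29.6 in nature and 64.6 in the control of omul. The heated difference of the sums was -1.67 (SE 0.59, limma adjusted p = 0.0245) in TRINITY_DN9807_c0 and -3.86 (SE 0.50, limma adjusted p = 8.80e-05) in TRINITY_DN188059_c1. Of the 5 components, 2 met the rule after summing and 3 did not. How far genes outside the list change these sums was not tested.

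**Figure D5:**
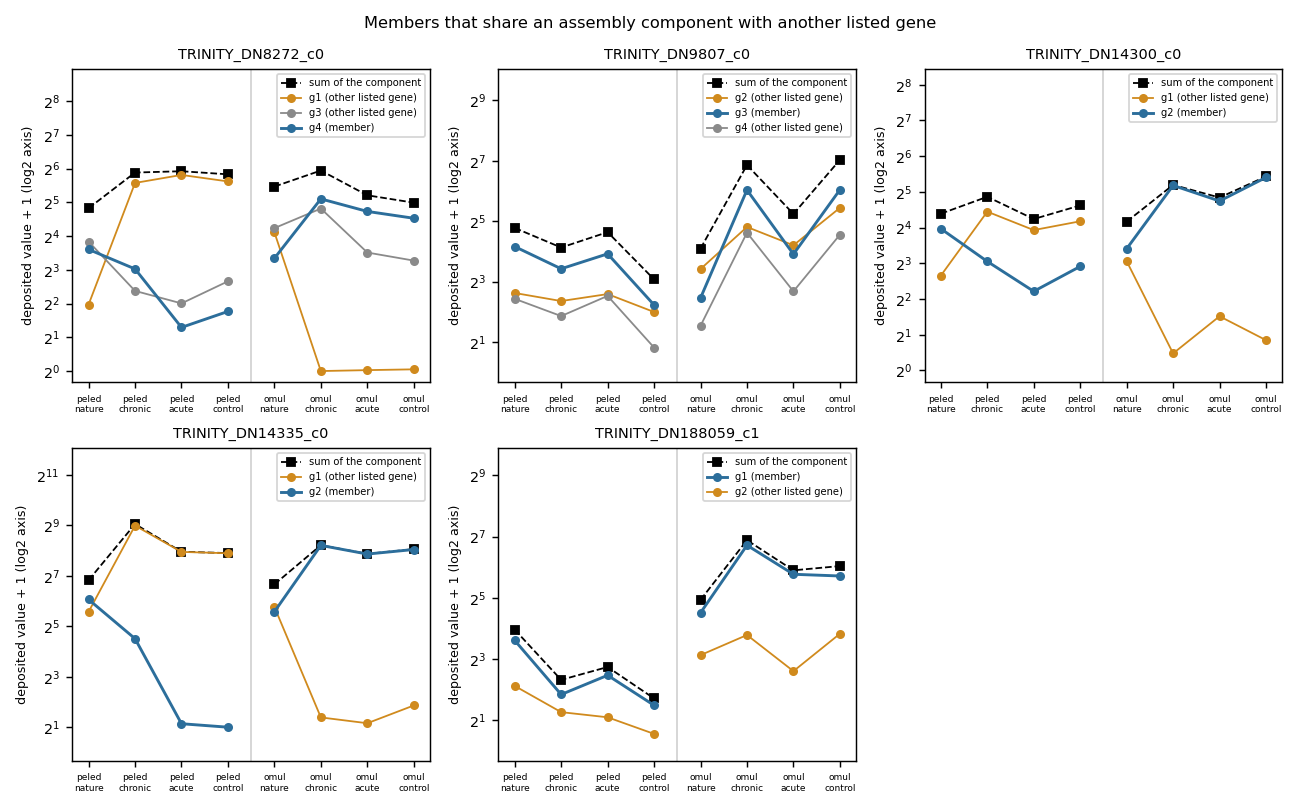
Deposited values (plus 1, log2 axis) of the 5 members that share an assembly component with other listed genes (blue), of those other genes (orange and grey) and of their sum (black squares), in the 8 pooled libraries. Lines join the libraries of a species to guide the eye and carry no order. In TRINITY_DN14335_c0 the sum is 113 in nature and 238 in the control of peled, and 100.3 in nature and 265 in the control of omul, whereas the member alone is at 65.9 and 1.01 in peled and at 46.8 and 263 in omul.

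Across the 39 genes, log2 values in nature peled and nature omul correlated at r = 0.83. Among the 3 aquaculture libraries of omul r was 0.84 to 0.87, and among those of peled 0.48 to 0.69. Between either library from nature and aquaculture-reared omul r was 0.55 to 0.85, against 0.02 to 0.34 with aquaculture-reared peled. These are descriptions over 39 genes chosen in these libraries, and 32 of the 39 were below 10 in each aquaculture library of peled. Why r was lower with those libraries was not tested.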

How the data were processed

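The members and lists were chosen with earlier results of these data known. Whole-larva poly(A) RNA of 8 pools was sequenced. The deposited value per gene and library is a normalized expression signal of unnamed unit: it is never negative, not whole and not a count. Whether the authors scaled it for gene length or between libraries, and the aligner, quantifier and rule for listing genes, were not given in the sources used here. Levels of different genes may therefore not be comparable, and sums and medians over genes mix them. Trimmomatic 0.36 and edgeR 4.0.3 are named without a role, per the submitters' processing notes.

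Members were found on log2((value + 1) ratio). The heated libraries (2 per species) were fitted with limma 3.58.1 (R 4.3.3) on log2(value + 1), species and regime additive, with an intensity trend, for 2177 genes with a mean of at least 1, and Benjamini-Hochberg adjusted p below 0.05 was called. Fold changes understate low genes. Adjusted p-values refer to the listed genes alone. On simulated data of 2176 genes for the species contrast, 64% of planted differences of 1 (log2) and 100% of those of 2 were recovered. For the regime contrast (2177 genes) these shares were 70% and 100%. False calls numbered 9 for species and 11 for regime. Every simulated gene had the same spread, the median residual SD of 0.313 (log2). In the heated fit the members' SE ran from 0.384 (TRINITY_DN7391_c1_g1) to 0.716 (TRINITY_DN14335_c0_g2). With 2 heated libraries per species and per regime, this SE equals the moderated SD of the gene. It was thus wider than 0.313 in every member. Recovery at these or other wider spreads was not tested, so an uncalled gene is not thereby shown to be unchanged. Pooled libraries carry no replicates. The error behind the p-values is the departure between the chronic-to-acute differences of the species, moderated over genes. It is not a spread over replicate pools. Depth is unknown, so no counting interval is given. Named genes were those with the largest opposed, heated, regime and heat-to-control differences, the highest values, those next to the threshold, and those in shared components. Alternatives were other pseudocounts, filters and scalings, no trend, no regime term, each heated library left out, and sums over components.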

Additional observations from a re-analysis of the deposited data

Results flagged for a closer look

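With heated libraries on the aquaculture side, the species moved in opposite ways over the members. The median log2 ratio of nature to chronic warming was 2.01 in peled and -1.24 in omul, and that of nature to acute warming was 2.10 in peled and -1.07 in omul. Over all listed genes the median for nature to chronic warming was 0.41 in peled and 0.29 in omul. For nature to acute warming it was 0.26 in both. The difference between the species was not tested. The libraries from nature were used to choose the members, which by itself favours opposite signs, so nothing is read from the medians of the members.

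In 3 members, the ratio of chronic to acute warming had opposite signs in the species and differed between them by at least 2 on the log2 scale, which was not tested. It was -0.49 in peled and 2.13 in omul for TRINITY_DN9807_c0_g3. TRINITY_DN29743_c0_g1 had -1.99 in peled and 0.51 in omul, with peled values of 0.069 after chronic and 3.25 after acute warming. For TRINITY_DN42397_c0_g1 the ratio was -1.62 in peled, where it was listed at 0 after chronic warming, and 0.38 in omul. The share of all listed genes with such a difference was not counted, so nothing is read from the number of members.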

How the results depend on the processing

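The rule gave 42 genes with a pseudocount of 0.1, 23 with 5, 64 with a level minimum of 5, 13 with 20, and 62 with libraries scaled to a common median, 28 of them among the 39. That scaling moved the median log2 ratio of nature to control of all genes to 0.29 in peled and 0.02 in omul, against 0.39 and 0.25 as deposited. Sums over components, an alternative chosen after the data were seen, gave 36, all holding a member.

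In the heated species test, 30 of 31 members were called at a mean of at least 10, 35 of 39 with no regime term, and 36 of 39 components by sums; with no regime term and 1 library left out, 28 to 31 of 39 were called. A species then left with 1 library is assumed to vary like the other. Over all listed genes, 419 lower and 403 higher were called at a mean of at least 10, where 1124 genes were tested in place of 2177. That mean is taken over both species, so a member could reach it through omul alone. TRINITY_DN4501_c0_g3 did so, at 1.30 and 0 in heated peled against 105.5 and 39.1 in heated omul. Nothing is therefore read from the 30 of 31 about low values in peled. With no regime term, the 4 libraries gave 796 lower and 709 higher, in place of 909 and 815. Set against these, leaving out omul chronic as well gave 590 and 479 and leaving out omul acute 572 and 487, a range over left-out libraries of 572 to 823 lower and 479 to 656 higher. On component sums, 34 of the 39 members were alone in their component, so their values stayed the same. Only the other 5 could show what adding genes does. Of these, TRINITY_DN9807_c0_g3 gained a call (-1.67, SE 0.59, limma adjusted p = 0.0245) and TRINITY_DN188059_c1_g1 kept its call. With the other genes added, the calls of 3 members were lost. For TRINITY_DN14335_c0_g2 the difference became 0.46 (SE 0.85, limma adjusted p = 0.628). For TRINITY_DN8272_c0_g4 it became 0.33 (SE 0.54, limma adjusted p = 0.588), and for TRINITY_DN14300_c0_g2 -0.47 (SE 0.47, limma adjusted p = 0.366). For TRINITY_DN14335_c0_g2 and TRINITY_DN8272_c0_g4 the difference changed sign, but each lay within 1 SE of 0.

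Calls of the regime test over all genes, 30 lower and 5 higher, became 8 and 1 (pseudocount 0.1), 43 and 13 (5), 17 and 3 (no filter), 26 and 2 (mean of at least 10), 20 and 2 (no trend) and 83 and 56 (common median), where 1 member was called higher. In the common-median fit limma's prior degrees of freedom were infinite, against 8.52 in the main fit, so a gene's own spread did not count. The median residual SD was 0.313 (log2) in both fits. What moved the calls was not tested further. With a pseudocount of 5, 1 member was higher in chronic omul than in the control, in place of 2. The only pairing was by regime, since the regime term set peled against omul within each regime, and each group has 1 library. Unknown depth limits the low peled values most.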
